A study of Mus musculus with 5 samples.

Results

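Serpina12, Serpinf1 and Serpine2 encode secreted serpins, and the serpin Serpinh1 was left out because its product is a collagen chaperone. A probe paired with 1 gene symbol in the platform annotation was found for Serpina12 and for Serpinf1, so 2 of the 3 genes were measured, out of 9669 genes in all. The annotation used here pairs no probe with Serpine2 alone, and Serpine2 was not analysed here. Each of the 2 measured genes had 1 probe, and the RefSeq transcript listed for that probe belonged to the same gene in the GRCm38.p6 gene table. The genes were chosen by their log ratios between the 2 cell lines on these arrays, so those ratios are given as a description, with no test.

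The cells were NIH3T3 fibroblasts, an immortalised mouse line, that constitutively overexpress human ERBB2 (HER-2/neu) from a cytomegalovirus promoter, set against untransfected NIH3T3 cells of the same line kept in the same serum-containing medium. The labels do not say whether the transfected line was a clone or a pool. Both lines were hybridised together on each of 5 cDNA arrays, arrays B1 and B2 from preparation B and arrays A1, A2 and A3 from preparation A. Erbb2 cDNA carried Cy5 on B2 and A3 and Cy3 on B1, A1 and A2.

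Serpins are named for their inhibition of serine proteases. An inhibitory serpin offers an exposed reactive loop as bait, and the protease that cuts it is trapped in a covalent complex. Serpina12, known as vaspin, is an adipokine of visceral fat that inhibits the kallikrein Klk7. Serpinf1, known as pigment epithelium-derived factor, has lost protease inhibition, binds collagen and heparin, opposes the growth of blood vessels and is secreted by many fibroblasts. Serpine2, protease nexin-1, inhibits thrombin and urokinase at the cell surface.

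Every value is a log2 ratio with Erbb2-transfected cells on top and NIH3T3 cells below, where 1 unit is a change of 2-fold. Arrays held values for 5368 (A1) to 17463 (B1) of 20205 probes, and their medians as deposited lay between -0.0017 and 0.0071. Which dye is the numerator is not stated in the labels. Cy5 over Cy3 was taken, since Cy5 is the first channel of each array, so the direction is likely and the opposite reading would turn every sign. Arrays of opposite dye orientation correlated at r between -0.54 and -0.17 across probes as deposited, and arrays of the same orientation at 0.45 to 0.52. The files give ratios and no intensities, so neither the level of a gene in either line nor its signal over background is known. Whether the 2 preparations came from different cultures is not in the labels, so p-values measure only the spread between these samples, which may be technical. In both lines, a change in RNA per cell cannot be told apart from a change in the number of cells that express a gene.

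Serpina12 was far higher in Erbb2-transfected than in NIH3T3 cells on every array. It had 3.36 on B1 and 3.30 on B2, against 3.09 on A1, 3.19 on A2 and 3.30 on A3. All 5 arrays lay above 3. The preparations met only at A3 and B2, at 3.3048 and 3.3047, with B1 above both and A1 and A2 below both. The arrays with Erbb2 cDNA in Cy5 lay inside the range of those with it in Cy3. With the dye orientations averaged within each preparation, the ratio was 3.33 in preparation B and 3.22 in preparation A, a mean of 3.28 ± 0.08 (SD, n = 2 preparations), or 9.70-fold. No feature of the 4892 with a value in both dye orientations of both preparations had a higher mean, where a feature is a gene or an unnamed probe. With the arrays unscaled, the whole spread of Serpina12 over the 5 arrays was 0.26. The median spread was 1.07 for the 2872 features with a value on all arrays. Among the 26 of these features whose mean lay 2 or more from 0, Serpina12 included, the median spread was 1.72, and 0 had a smaller one than Serpina12.

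Serpinf1 was lower in Erbb2-transfected than in NIH3T3 cells on every array, by an amount that varied. It had -1.31 on B1 and -1.20 on B2, against -2.01 on A1, -1.62 on A2 and -0.33 on A3. The arrays of preparation B lay inside the range of those of preparation A, whose array with Erbb2 cDNA in Cy5 lay nearest to 0. The ratio was -1.25 in preparation B and -1.08 in preparation A, a mean of -1.16 ± 0.13 (SD, n = 2 preparations), which is 2.24-fold higher in NIH3T3 cells. This SD understates the disagreement between arrays, since the mean of each preparation averages opposite dyes. Over the 5 arrays the SD was 0.62 and the spread 1.68, wider than in 82.5% of the features with a value on all arrays. Of the 4892 features, 98 had a lower mean.

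**Figure D1:**
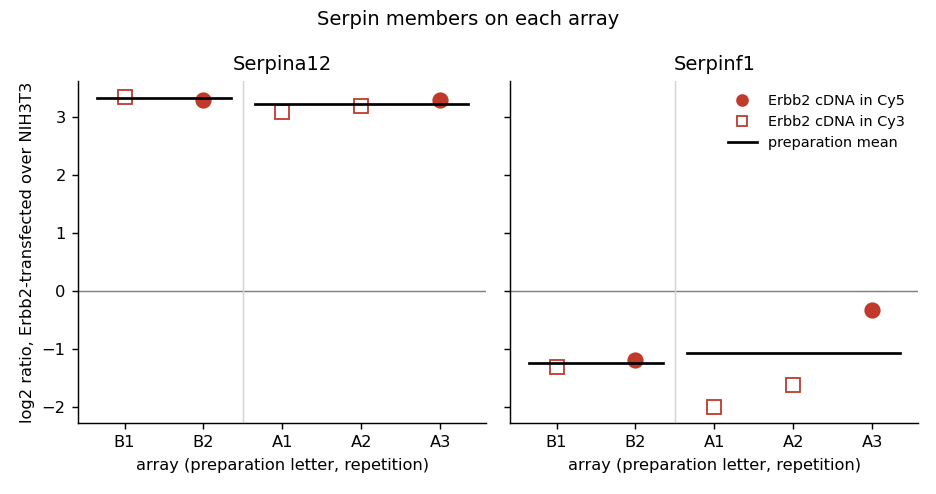
Log2 ratio of Erbb2-transfected over NIH3T3 cells (vertical axis) of Serpina12 (left) and Serpinf1 (right) on each array (horizontal axis, preparation B left of preparation A). Filled circles mark Erbb2 cDNA in Cy5, open squares mark Cy3 and black lines mark preparation means. Serpina12 lies between 3.09 and 3.36 throughout, while Serpinf1 reaches from -2.01 to -0.33.

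**Figure D2:**
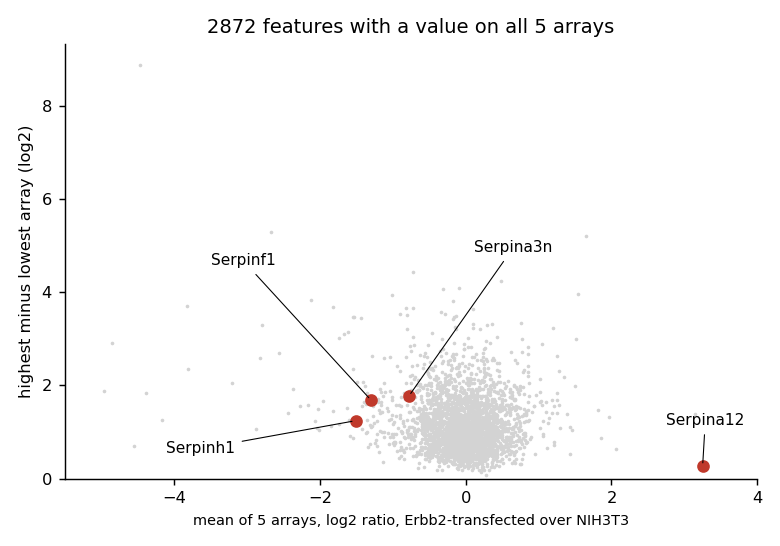
Mean log2 ratio over the 5 arrays (horizontal axis) against the difference between the highest and the lowest array (vertical axis) for the 2872 features with a value on all arrays, with 4 serpins in red. With the arrays unscaled, Serpina12 combines a high ratio with a spread of 0.26, and Serpinf1 has a spread of 1.68.

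Dye and preparation are contrasts that the choice of the genes did not use, and both were tested with limma on the 5 arrays over all 4892 features. The dye effect is the ratio with Erbb2 cDNA in Cy5 minus that with Erbb2 cDNA in Cy3, for which 0.593% of features passed at an adjusted p under 0.05. For Serpina12 the mean was 3.30 with Erbb2 cDNA in Cy5 and 3.21 with it in Cy3. Its dye effect was 0.07 ± 0.37 (SE; 95% interval from -0.72 to 0.86; adjusted p = 0.957 by limma). For Serpinf1 the mean was -0.76 with Erbb2 cDNA in Cy5 and -1.65 with it in Cy3. Its dye effect was 0.90 ± 0.41 (SE; 95% interval from 0.02 to 1.77), with an unadjusted p of 0.0448 and an adjusted p of 0.369 by limma. At an unadjusted p under 0.05, 13.2% of features had a dye effect, so that of Serpinf1 did not stand out from the background. The interval allows a dye effect larger than the ratio of Serpinf1 itself. The estimate hung on single arrays, at 0.12 without A3 and 1.49 without B1 or without B2.

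Preparation B minus A was 0.12 ± 0.37 for Serpina12 (SE; 95% interval from -0.66 to 0.91; adjusted p = 0.99 by limma) and -0.08 ± 0.41 for Serpinf1 (SE; 95% interval from -0.95 to 0.80; adjusted p = 0.992 by limma). Neither gene passed, and 0.0204% of all features did so (1 of 4892, against 6.75% at an unadjusted p under 0.05, which neither gene reached). The difference of Serpinf1 was -0.86 without B1, -0.27 without A1 and 0.51 without B2 or without A3, so its sign turned with the array left out. That of Serpina12 lay between -8.3e-05 and 0.21 with 1 array left out. It rose to 0.83 with the arrays scaled to the same spread and to 1.48 after quantile normalization (adjusted p = 0.722 and 0.577 by limma). For Serpinf1 the difference was then -0.39 and -0.51. The small difference of Serpina12 thus held for unscaled arrays only. With 1 preparation B and 1 preparation A, each SE, interval and p-value for preparation B minus A, here and below, measures the spread between arrays only. The intervals do not show that the preparations were alike.

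The promoters of the 2 genes, the 250 bases before the RefSeq start, are shown because the genes lay on opposite sides of 0. Both lie on the minus strand of GRCm38.p6, Serpina12 at chr12:104044444-104044693 and Serpinf1 at chr11:75422624-75422873. Capitals mark matches to a motif on either strand. One motif was the AP-1 site, spelled TGANTCA, and another was the TATA box, spelled TATAAA. The CCAAT box was searched by the letters of its name. The GC box is spelled GGGCGG. The E-box is spelled CANNTG and reads the same on both strands. No matches overlapped in either promoter.
Serpina12: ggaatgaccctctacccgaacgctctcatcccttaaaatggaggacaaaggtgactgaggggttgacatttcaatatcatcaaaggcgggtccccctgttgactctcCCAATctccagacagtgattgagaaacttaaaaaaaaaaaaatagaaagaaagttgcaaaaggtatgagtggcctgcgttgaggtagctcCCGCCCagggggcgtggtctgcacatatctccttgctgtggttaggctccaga
Serpinf1: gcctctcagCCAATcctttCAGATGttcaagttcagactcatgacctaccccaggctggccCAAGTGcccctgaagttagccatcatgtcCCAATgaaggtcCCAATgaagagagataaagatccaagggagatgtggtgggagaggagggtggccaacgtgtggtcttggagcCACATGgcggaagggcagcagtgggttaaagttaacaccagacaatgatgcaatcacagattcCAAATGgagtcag
In the sequence of Serpina12, the capitals are 1 CCAAT box, 143 bases before the start, and 1 GC box on the opposite strand, 53 bases before it. In that of Serpinf1 they are 3 CCAAT boxes, 241, 160 and 148 bases before the start, and 4 E-boxes, 231, 189, 76 and 13 bases before it. Among 32851 RefSeq promoter windows of this length, 33.8% hold a CCAAT box, 32.7% a GC box and 66.2% an E-box. Neither sequence holds the AP-1 site, found in 6.75% of windows, or the TATA box, found in 12.4%. A match is a run of letters and no measurement of binding. GC content was 48.4% for Serpina12 and 51.6% for Serpinf1, against a median of 52.4%.

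The other serpins gave no ratio near that of Serpina12. Of 19 further serpin genes with a probe of 1 symbol, 14 had a value on at least 1 array, and the highest of these values was 1.60, for Serpina1b on A1. Apart from Serpinh1, 2 of these genes could be tested. At an adjusted p under 0.05 limma called 0 of them, against 6.79% of all features. At an unadjusted p under 0.05, 1 of them passed, and no share of all features is given at that threshold. Serpina3n, an acute-phase inhibitor of cathepsin G in the family of antichymotrypsins, had 0.04 on B1 and -0.26 on B2, against -1.72 on A1, -1.35 on A2 and -0.62 on A3. Its arrays of preparation A all lay below those of preparation B, and its mean was -0.59 ± 0.69 (SD, n = 2 preparations; adjusted p = 0.187 by limma). Preparation B minus A was 1.06 for Serpina3n (adjusted p = 0.662 by limma). Serpinb1a, an intracellular inhibitor of neutrophil elastase, had -0.42 on B1 and 0.52 on B2, against -0.20 on A2 and 0.19 on A3. Its sign followed the dye, and its mean was 0.02 ± 0.04 (SD, n = 2 preparations; adjusted p = 0.958 by limma).

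Serpins measured on fewer arrays had no test. Serpina1b, an alpha-1-antitrypsin and close relative of Serpina1e, lay above 0 on each of 4 arrays, at 0.09 on B1, 0.91 on B2, 1.60 on A1 and 0.63 on A2. Serpina1e had -0.63 on B1 and 0.76 on B2. The alpha-1-antitrypsin genes are nearly identical in sequence, so values of single copies are uncertain, and 5 further probes that the annotation pairs with several genes, a serpin among them, were not used. Serpinf2, the main inhibitor of plasmin, was above 0 on 3 arrays, at 0.50 on B1, 0.57 on B2 and 0.20 on A2. Serpina5, the protein C inhibitor, had 0.54 on B2 and 0.74 on A3. Serpina6, which carries corticosteroids in plasma, had 0.73 on B1, against 0.93 on A2 and -0.03 on A3.
Serpind1, heparin cofactor II, had -0.09 on B2 and -0.49 on A2. Serpinb12 had both signs, with -0.93 on B1 and 0.73 on A2, as had the pseudogene Serpina4-ps1, with 0.70 on B1, 0.83 on B2 and -0.37 on A2. Serpina10, Serpina11 and Serpinc1 (antithrombin) were measured on B1 alone, at 1.23, 0.07 and -0.51. Of the 11 further serpins with values on 2 or more arrays, 3 lay above 0 on each, 2 below 0 on each and 6 had both signs. One of those below 0 was Serpinh1, with -1.36 on B1 and -1.92 on B2, against -1.78 on A1, -0.67 on A2 and -1.83 on A3. Serpinh1 was tested and called lower, with a mean of -1.58 ± 0.08 (SD, n = 2 preparations; adjusted p = 0.000793 by limma).

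**Figure D3:**
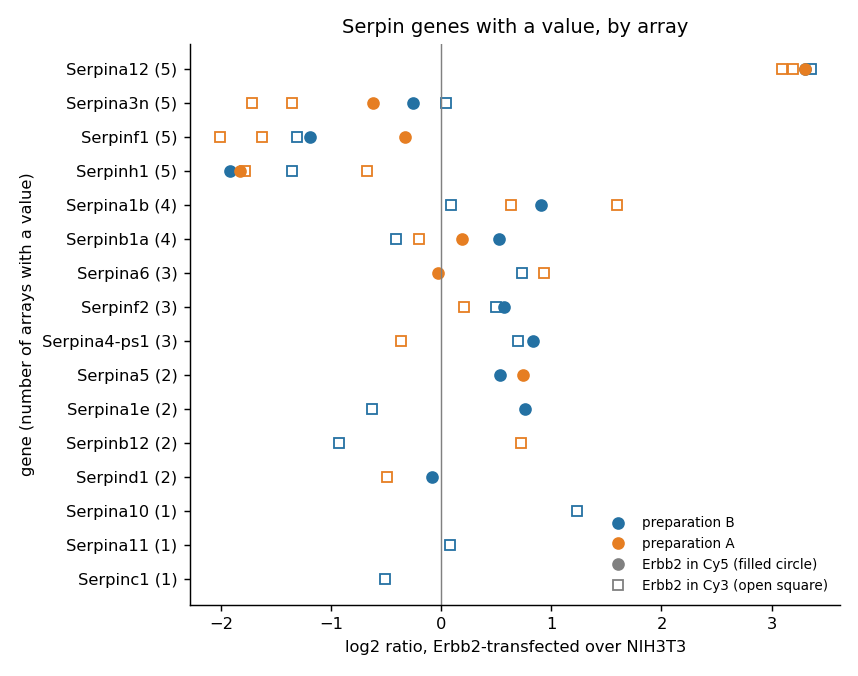
Log2 ratio of Erbb2-transfected over NIH3T3 cells (horizontal axis) of each serpin gene with a value (vertical axis, number of arrays in brackets), 1 point per array, blue for preparation B and orange for preparation A, filled circles for Erbb2 cDNA in Cy5 and open squares for Cy3. The points of Serpina12 lie above 3 and those of the other serpins at or below 1.60.

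Serpina12 sits in a cluster of related genes. Among the 20 protein-coding genes on each side of it on chromosome 12, in the order of GRCm38.p6, 22 of 40 were serpins. Of these 40 neighbours, 12 had a value and 3 were tested, with means between -0.59 and 0.87. Serpina5, the next gene, was measured on 2 arrays with the values above. Limma called 1 of the 3, against 6.79% of all features tested. The neighbour called was Dicer1, 13 genes away, which cuts microRNA precursors. Dicer1 had 0.70 on B1 and 1.36 on B2, against 0.45 on A1, 0.68 on A2 and 0.86 on A3. Its mean was 0.87 ± 0.23 (SD, n = 2 preparations; adjusted p = 0.0297 by limma), and its call was lost when the arrays were scaled to the same spread or when A3, B1 or B2 was left out.

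Around Serpinf1 on chromosome 11, 25 of 40 neighbours had a value and 7 were tested, with means between -0.87 and -0.05. Serpinf2, the gene next to it, was above 0 on its 3 arrays, where Serpinf1 was below 0. Limma called 1 of the 7, against 6.79% of all features tested. The neighbour called was Dbil5, 20 genes away and so at the edge of the window. Dbil5 had -0.74 on B1 and -1.74 on B2, against -0.21 on A2 and -0.80 on A3. Its mean was -0.87 ± 0.52 (SD, n = 2 preparations; adjusted p = 0.0465 by limma), and it was not called after scaling or quantile normalization of the arrays, nor without A3 or B2.

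**Figure D4:**
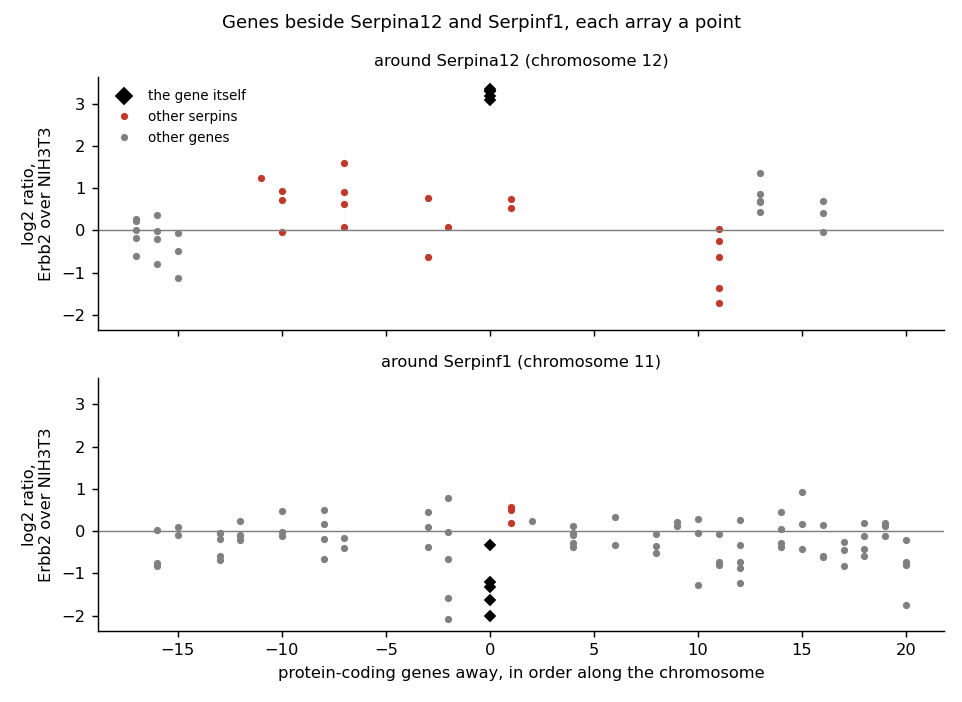
Log2 ratio of Erbb2-transfected over NIH3T3 cells (vertical axis) of protein-coding genes beside Serpina12 (top) and Serpinf1 (bottom), by their order along the chromosome (horizontal axis, genes away), 1 point per array. Black diamonds mark the gene itself, red points other serpins and grey points other genes. No neighbour of Serpina12 reaches 2.

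Among inhibitors of proteases outside the serpin family, 26 of 41 listed genes had a value and 8 were tested. Of these, 1 rose, 2 fell and 5 did not pass, with a median of 0.13, against -0.02 for all features tested, of which 2.25% rose and 4.54% fell. Timp3, an inhibitor of metalloproteinases held in the matrix, had -2.01 on B1 and -3.26 on B2, against -4.06 on A1, -3.20 on A2 and -3.47 on A3. Every array was at or below -2.01, and Timp3 fell with -3.09 ± 0.65 (SD, n = 2 preparations; adjusted p = 1.84e-05 by limma). Itih2, a heavy chain of inter-alpha-trypsin inhibitor that binds hyaluronan, had -0.49 on B1 and -0.31 on B2, against -5.61 on A1, -2.53 on A2 and -4.43 on A3. Its preparations did not overlap. Itih2 passed with -2.33 ± 2.72 (SD, n = 2 preparations; adjusted p = 0.0454 by limma), an SD larger than its mean, and was not called after scaling or quantile normalization of the arrays (adjusted p = 0.17 and 0.0612 by limma). Preparation B minus A was 3.81 for Itih2 (adjusted p = 0.0508 by limma). Pi16, a peptidase inhibitor of the CAP family, rose by 0.77 ± 0.22 (SD, n = 2 preparations; adjusted p = 0.0499 by limma), with 1.08 on B1 and 0.77 on B2, against 0.15 on A1, 0.68 on A2 and 0.82 on A3. Pi16 lay above 0 on every array but lost its call after scaling or quantile normalization and when A2, A3, B1 or B2 was left out.

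The proteases that serpins act on were thinly measured. Of 46 listed serine proteases outside the next 2 lists, 20 had a value and 4 were tested. Limma called 0 of them (2 at an unadjusted p under 0.05), against 6.79% of all features tested. Their median was -0.30, against -0.02 for all features tested. With 4 genes tested, 0 calls say little, and no share of all features at an unadjusted p is given for this contrast. C1ra, which starts the classical complement cascade, had -0.48 ± 0.38 (SD, n = 2 preparations) and lay below 0 on all 5 arrays, between -1.49 and -0.17. Klk1, tissue kallikrein, had -0.13 ± 0.34. Klk7, the protease that vaspin inhibits, had no value. Prss23 had -3.18 on B1, against -0.56 on A1 and -3.11 on A2, all with Erbb2 cDNA in Cy3, so its dye effect does not cancel and it was not tested.

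In the list of plasminogen activation, 8 of 16 genes had a value and 1 was tested. S100a10, which holds plasminogen at the cell surface together with Anxa2, had 0.17 ± 0.05 (SD, n = 2 preparations) and was not called by limma (0 of 1 at an unadjusted p under 0.05). Plau, the urokinase gene, had -1.08 on B1 and -0.86 on B2, against 0.33 on A2, and so had both signs. In the list of thrombin and coagulation, 12 of 22 genes had a value and 1 was tested. F2r, the thrombin receptor PAR1, had -0.69 on B1 and -2.19 on B2, against -0.05 on A1, -0.16 on A2 and -0.44 on A3. All 5 arrays of F2r were below 0, those of preparation B lowest, and it was not called with -0.86 ± 0.83 (SD, n = 2 preparations; adjusted p = 0.0841 by limma). It was called without A1 (adjusted p = 0.0183 by limma), without B1 (adjusted p = 0.0115 by limma) and with each probe taken alone (adjusted p = 0.0192 by limma). Pros1, the protein S gene, was below 0 on 3 arrays, at -0.60 on B1, against -1.16 on A2 and -0.45 on A3.

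Of 22 receptors and binding partners of the 3 serpins, 16 had a value and 8 were tested, of which 1 rose, 0 fell and 7 did not pass (median 0.09), against 2.25% higher and 4.54% lower among all features tested. Gpc4, a glypican that carries heparan sulphate, rose by 1.04 ± 0.39 (SD, n = 2 preparations; adjusted p = 0.0166 by limma), with 1.20 on B1 and 1.44 on B2, against 1.23 on A2 and 0.31 on A3. Gpc4 was above 0 on all 4 arrays with a value and was not called after scaling the arrays (adjusted p = 0.0735 by limma). Pnpla2, a lipase that binds the product of Serpinf1, had 0.07, and Rpsa, the laminin receptor, had 0.36; neither passed. Hspa5, a chaperone reported as a surface receptor of vaspin, had -0.32 on B1, against -1.93 on A1 and -2.21 on A2. Each of these arrays had Erbb2 cDNA in Cy3, so the dye effect of Hspa5 does not cancel and it was not tested. Lrp1, which clears complexes of Serpine2 with proteases, had -1.52 on both B1 and A2, the 2 arrays that measured it, each with Erbb2 cDNA in Cy3.

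Of 31 regulators of blood vessel growth, the process that the product of Serpinf1 opposes, 16 had a value and 4 were tested. Adamts1 and Hif1a fell, 0 rose and 2 did not pass (median -0.46), against 4.54% lower and 2.25% higher among all features tested. The count of 2 became 0 after scaling the arrays, without B1 or without A3. Adamts1, a metalloproteinase that binds VEGF, had -0.96 ± 0.28 (SD, n = 2 preparations; adjusted p = 0.0198 by limma), below 0 on all 5 arrays, and was not called after scaling the arrays, nor without A3 or B1. Hif1a, the oxygen-regulated transcription factor, had -0.77 ± 0.09 (SD, n = 2 preparations; adjusted p = 0.0465 by limma), but its arrays were split by dye, with -0.32 on B1 and -1.10 on B2, against -0.27 on A2 and -1.39 on A3. The call of Hif1a was lost after scaling or quantile normalization and when A3, B1 or B2 was left out. Vegfa and its receptor Flt1, which were not called, had -0.16 and 0.16.

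**Figure D5:**
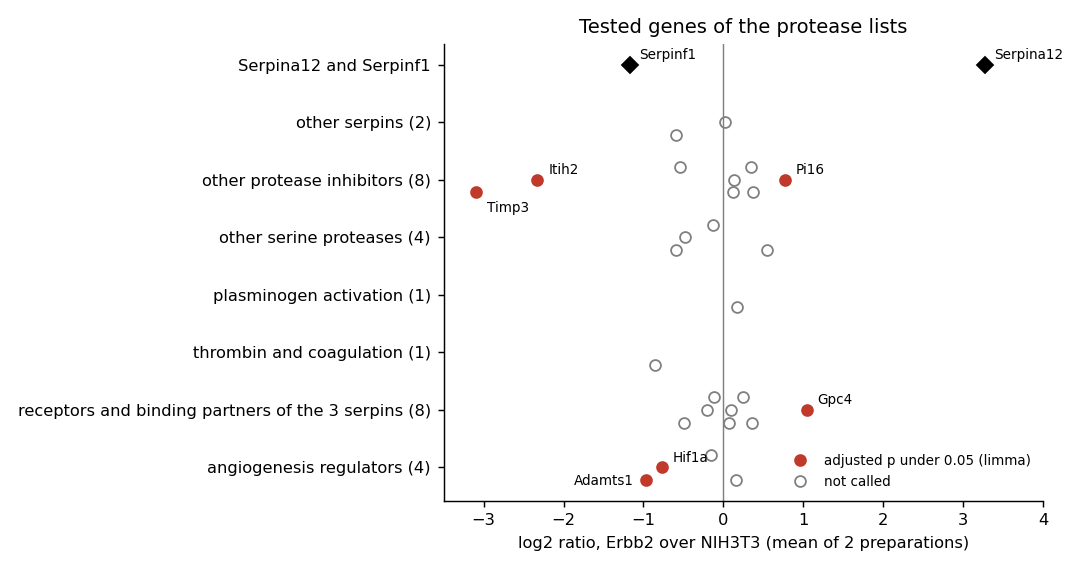
Mean log2 ratio of the 2 preparations, Erbb2-transfected over NIH3T3 cells (horizontal axis), of each tested gene in 7 lists (vertical axis, number tested in brackets), with Serpina12 and Serpinf1 as black diamonds in the top row. Red points passed limma's test and open points did not; Serpina12 at 3.28 is the highest point and Timp3 at -3.09 the lowest.

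Since fat and liver express Serpina12, markers of other cell types were read beside it. Of 17 adipocyte markers and adipokines, 10 had a value, between -1.64 and 0.65 with a median of 0.06, and 5 had a mean above 0 and 5 below. Cebpa, the 1 tested, had -0.22 ± 0.13 (SD, n = 2 preparations) and was not called, and Fabp4 had -0.13 on B1 and 0.36 on B2, against 0.35 on A2. Of 16 hepatocyte markers, 10 had values between -1.12 and 1.78 with a median of 0.10, and Alb and Trf, tested and not called, had 0.11 and 0.22. Epithelial and keratinocyte markers (8 with a value) had a median of 0.05, with Krt19 at 0.19 and not called, endothelial markers (3) -0.27, and macrophage and leukocyte markers (4) -0.22. No marker of these lists was called by limma at an adjusted p under 0.05, against 6.79% of all features tested. At an unadjusted p under 0.05, 0 of the 4 tested passed. With 4 tested, 0 calls say little, and no endothelial, macrophage or leukocyte marker was tested. Without intensities, absence of a marker in both lines cannot be told apart from equal levels, and the part of other cell types in the ratio of Serpina12 was not tested.

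Of 14 fibroblast markers, 11 had a value and 7 were tested, of which 3 fell and 0 rose, against 4.54% lower and 2.25% higher among all features tested. Col1a1, Fn1 and Col1a2 had -4.93 ± 0.75, -4.61 ± 0.13 and -3.97 ± 0.14 (SD, n = 2 preparations), while Vim had 0.47 ± 0.32 and was not called. Col3a1, another fibrillar collagen gene, had 0.26 on B1 and -0.64 on B2, against 2.70 on A1, 0.78 on A2 and 0.69 on A3. It lay above 0 on 4 of 5 arrays and was not called, with 0.51 ± 0.99 (SD, n = 2 preparations; adjusted p = 0.331 by limma). Of the ERBB receptor genes, Erbb3 and Egfr had values and 0 were tested, and no probe was paired with Erbb2 alone, so the transfected gene itself was not measured here.

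The pattern of Serpina12 over the 5 arrays had no close match among named genes. Of 2006 other genes with a value on all 5 arrays, the nearest by root mean square difference was Klf5, a transcription factor, at 1.41. Sox9 followed at 1.43, Prkg2 at 1.55, Oaf at 1.83 and Fip1l1 at 1.85, and their means over the arrays lay between 1.43 and 1.97, below each value of Serpina12. A single feature lay within 1, an unnamed probe at 0.54, with 3.00 on B1 and 2.40 on B2, against 3.46 on A1, 3.78 on A2 and 3.09 on A3. Serpinf1 had many matches, with 189 genes within 1. The nearest were Id3, an inhibitor of basic helix-loop-helix factors, at 0.47, Dynlt1b and Gadd45b at 0.48 each, and Tspo and Zfp36l1 at 0.51 each. Id3 shared the split of Serpinf1 in preparation A, with -1.25 on B1 and -0.35 on B2, against -1.61 on A1, -1.93 on A2 and -0.69 on A3. The measure mostly follows the mean ratio and has 5 points from 2 preparations.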

How the data were processed

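RNA of both lines was measured on 5 two-colour cDNA arrays. Per the labels, the authors scanned them with a GenePix 4000A, subtracted the background from mean intensities and set the median ratio to 1. Why some values are empty was not stated. The deposited values were read as log2 ratios, since 16.5% to 49.8% of them per array were, up to 1 constant, the log2 of a fraction of integers no larger than 300 (tolerance 6e-07). At most 1.81% were so with that constant shifted, at most 2.62% with a natural logarithm and at most 4.23% with a logarithm to base 10.

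Of 20205 probes, 11723 had 1 gene symbol, 806 several and 7676 none listed here. Entrez identifiers of 11590 probes were found in the GRCm38.p6 gene table, which changed 0 symbols. Arrays with Erbb2 cDNA in Cy3 were sign-turned, and probes of 1 gene were averaged. Dye orientations were averaged within a preparation, and the 2 preparation means were tested against 0 with limma 3.58.1 (R 4.3.3, lmFit and eBayes, Benjamini-Hochberg, threshold 0.05). Dye and preparation were tested in 1 limma model on the 5 arrays. The procedures were tested on simulated data, drawn independently for each array with no spread shared within a preparation. A log2 change of 1 was recovered in 39.4% of cases between cell lines. For the dye effect it was 8.36%, and for the preparation difference 8.51%. False calls made up 0.77%, 9.71% and 8.02% of calls, in the same order. For the cell lines alone, calls of features simulated with a preparation difference were not counted as false. The shares for dye and preparation lay above that set by the threshold of 0.05. Alternatives covered the unit of replication, dye balance, scaling, quantile normalization, probes, missing values, the threshold, a replicate block and each array left out.

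The genes, lists and tests were chosen with earlier results of these data known. Named are all measured serpins, up to 4 called genes per list (if none, up to 2 with the most arrays), and the 5 genes nearest in pattern to each member. Other genes, such as Dicer1, Dbil5, Prss23, Pnpla2, Rpsa, Hspa5, Lrp1, Vegfa, Flt1, Fabp4, Vim and Col3a1, were named after their values were seen. Promoters are RefSeq sequences (GRCm38.p6). The number of arrays limits the precision.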

Additional observations from a re-analysis of the deposited data

Results flagged for a closer look

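On Serpina12 and Serpinf1, no array stood apart from the others. Of 36 named genes that were checked, each with 4 or 5 arrays, 2 had 1 array far from the rest, where chance gives this for about 5%. For Fn1 that array was A2, at -4.01, while the remaining arrays lay between -4.72 and -4.61. Klf5, the named gene nearest in pattern to Serpina12, had 0.97 on B1, against 2.01 to 2.30 on the others. Pnpla2, Rpsa, Vegfa, Flt1, Vim and Col3a1 were not part of this check. Of these, Flt1 had 0.53 on A2, against 0.07 on B1, 0.01 on B2 and 0.04 on A3.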

How the results depend on the processing

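Serpina12 lay between 3.24 and 3.29 with any 1 array left out, at 3.41 with the arrays scaled to the same spread and at 3.91 after quantile normalization. Serpinf1 lay between -1.54 (without A3) and -1.12 (without A1). No array of either gene had the opposite sign, so these alternatives could hardly turn the sign of their means. Over the alternatives, adjusted p-values of limma were at or above 0.248 for their dye effects and at or above 0.577 for their preparation differences. With 1 array left out, the dye effect lay between -0.05 and 0.16 for Serpina12 and between 0.12 and 1.49 for Serpinf1. With a replicate block in place of the dye term, preparation B minus A was 0.19 for Serpina12 and 0.57 for Serpinf1, and 1 feature was called. Repetition numbers mark arrays and pair no samples.

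The number of features called between cell lines was 332, but 126 after scaling, 544 with each probe taken alone and 120 at an adjusted p under 0.01, and lay between 198 (without B2) and 498 (without A1) with 1 array left out. Dye effects were called for 29 features, for 7 after scaling, 8 after quantile normalization, 19 with each probe alone and 4 when a value on all 5 arrays was required, and for 2 to 256 with 1 array left out (256 without A1). The preparation difference was called for 1 to 25 features with 1 array left out. The cause of these shifts was not tested. For the other named genes under the alternatives, 295 values kept their side of the threshold, 35 lost their call, 3 gained one and 0 changed sign with a call.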
